A study of Mus musculus with 16 samples.

Results

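The T cell receptor alpha and delta locus of the mouse is a single stretch of chromosome 14 that holds the V, D, J and C gene segments of both receptor chains. The window examined was chr14:52400000-54240000 (mm10), from before Trav1 to past the enhancer that follows Trac, and a peak of open chromatin belonged to it where its summit lay inside. The DN list had 213 of its 150139 peaks there and the DP list 220 of 107110, while SP4 had 214 of 115074 and SP8 had 201 of 104411. GENCODE places 202 gene segments of these chains in the window, of which 136 are V, 2 are D, 62 are J and 2 are C segments.

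Accessible DNA was mapped with ATAC-seq, in which a transposase cuts accessible DNA and inserts sequencing adapters, in thymocytes sorted at 4 stages. Wild type C57BL/6J mice, 9 weeks of age, gave 16 libraries, and by the labels the same 4 mice gave a library at each stage. The double negative group (DN) was Lin- CD4- CD8- CD3-, the double positive group (DP) Lin- CD4+ CD8+, the CD4 single positive group (SP4) Lin- CD4+ CD8- CD3+ and the CD8 single positive group (SP8) Lin- CD4- CD8+ CD3+. The antibody cocktail against other lineages (Lin) included antibodies to the gamma delta receptor and to Mac1, Gr1 and CD11c, which mark myeloid cells. The authors pooled the reads of the 4 mice of a stage before they called peaks, so no value below has a replicate error, and every comparison between stages is a description of 4 pooled lists with no test.

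A receptor alpha chain is assembled by joining a V to a J segment, and a delta chain by joining a V, D and J segment, through the RAG recombinase, which cuts at recombination signals beside each segment. Each signal is a heptamer and a nonamer held apart by a short or a long spacer. The delta segments lie inside the alpha locus, between the V segments and the J alpha segments. Delta rearrangement takes place in DN cells, and alpha rearrangement in DP cells deletes the delta segments. In alpha rearrangement the first joins use J segments far from Trac and later joins use J segments nearer to it. An enhancer past Trac, an enhancer between the delta J segments and Trdc, and the T early alpha (TEA) promoter upstream of the J alpha segments are the best known control elements of the locus. Since a join removes the DNA between the segments joined, fewer copies of a stretch of DNA and less accessible DNA cannot be told apart in these data.

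The sequences below carry the results that follow. They come from the RefSeq sequence of mm10 and all are written 5′ to 3′ on the plus strand. The first set shows cutting sites of D and J segments, with heptamer and nonamer in capitals. A signal before a segment appears here as its reverse complement, so the consensus heptamer CACAGTG reads there as CACTGTG. The heptamer before Trdd1 is thus exact, and that before Traj49 is not. Trdd1 (chr14:54113440-54113517) and Trdd2 (chr14:54122198-54122280) are the delta D segments with their signals on both sides, and both had a DN peak and no SP peak. Traj58 (chr14:54157252-54157342) had a peak at DP only and Traj49 (chr14:54168658-54168747) at all 4 stages.
Trdd1: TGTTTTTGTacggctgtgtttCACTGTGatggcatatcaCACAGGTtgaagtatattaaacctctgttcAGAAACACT
Trdd2: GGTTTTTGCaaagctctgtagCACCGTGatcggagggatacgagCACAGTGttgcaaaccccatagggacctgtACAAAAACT
Traj58: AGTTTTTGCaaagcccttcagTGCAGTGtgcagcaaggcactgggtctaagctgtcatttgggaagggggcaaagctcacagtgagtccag
Traj49: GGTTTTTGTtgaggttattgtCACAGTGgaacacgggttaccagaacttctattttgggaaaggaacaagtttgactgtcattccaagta

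The signals past the end of 3 V segments follow, from the first base after the coding part. Trav13-4-dv7 (chr14:53757922-53757960) and Trav4-3 (chr14:53599411-53599449) are shown because the peak at their end was far lower at SP4 and SP8 than at DN. Trav3-1 (chr14:52581214-52581252) is shown as one of the 5 V segments with the full consensus of both parts, CACAGTG and ACAAAAACC.
Trav13-4-dv7: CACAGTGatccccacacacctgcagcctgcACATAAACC
Trav4-3: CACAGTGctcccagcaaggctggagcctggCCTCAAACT
Trav3-1: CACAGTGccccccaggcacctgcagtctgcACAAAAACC

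Windows of 300 bases from the control regions follow, with capitals for any of 8 motifs searched on both strands. A capital run can hold overlapping motifs. Among 300-base windows on the summits of all 185978 merged regions of the genome, 0.573% held TGACGTCA, the CRE motif, 31.5% TGTGGT for RUNX, 22% CTTTGA for TCF/LEF, 12.7% AGATAA for GATA, 23% CAGCTG for the E-box, 43.1% CAGGAA for ETS, 26.8% TAACNG for MYB and 5.16% the consensus of CTCF. The enhancer past Trac (chr14:54227348-54227647) is intergenic between Trac and Dad1, and this stretch of it was chosen after the motifs were read, as the one with the most kinds of motif. The region further past Trac (chr14:54233342-54233641) is intergenic too. The region first past Trdj2 (chr14:54137087-54137386) lies between Trdj2 and Trdc in an intron of the antisense gene Gm43434. The TEA stretch (chr14:54153009-54153308) is intergenic and upstream of the first J alpha segment. The region upstream of Trdd1 (chr14:54111058-54111357) lies in an intron of the antisense gene Gm30275. The bases before the starts of Trav10d (chr14:52810634-52810933) and Trav12-1 (chr14:53537891-53538190) are shown for their CTCF match, and both were picked by a search that required it.
enhancer past Trac: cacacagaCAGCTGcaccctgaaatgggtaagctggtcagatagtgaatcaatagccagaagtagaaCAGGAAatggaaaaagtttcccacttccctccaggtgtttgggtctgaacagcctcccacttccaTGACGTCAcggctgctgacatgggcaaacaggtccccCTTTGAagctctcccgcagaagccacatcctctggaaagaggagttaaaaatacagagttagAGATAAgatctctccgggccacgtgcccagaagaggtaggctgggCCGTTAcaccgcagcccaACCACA
further past Trac: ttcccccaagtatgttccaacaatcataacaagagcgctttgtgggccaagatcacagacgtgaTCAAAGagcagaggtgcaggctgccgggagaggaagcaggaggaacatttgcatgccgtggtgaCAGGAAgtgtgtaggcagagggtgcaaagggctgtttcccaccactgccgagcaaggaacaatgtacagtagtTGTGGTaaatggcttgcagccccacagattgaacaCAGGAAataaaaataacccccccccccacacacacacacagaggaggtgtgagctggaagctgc
first past Trdj2: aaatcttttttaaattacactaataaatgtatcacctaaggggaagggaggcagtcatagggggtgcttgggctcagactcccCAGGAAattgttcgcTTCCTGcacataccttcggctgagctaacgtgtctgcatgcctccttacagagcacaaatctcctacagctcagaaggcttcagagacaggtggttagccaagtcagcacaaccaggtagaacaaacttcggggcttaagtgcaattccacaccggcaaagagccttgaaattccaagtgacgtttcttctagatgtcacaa
TEA stretch: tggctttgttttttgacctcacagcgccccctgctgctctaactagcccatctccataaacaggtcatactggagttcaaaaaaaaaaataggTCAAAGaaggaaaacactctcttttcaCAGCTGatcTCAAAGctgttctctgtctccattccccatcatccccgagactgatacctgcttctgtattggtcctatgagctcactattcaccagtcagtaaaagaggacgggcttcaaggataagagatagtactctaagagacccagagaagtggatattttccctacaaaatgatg
upstream of Trdd1: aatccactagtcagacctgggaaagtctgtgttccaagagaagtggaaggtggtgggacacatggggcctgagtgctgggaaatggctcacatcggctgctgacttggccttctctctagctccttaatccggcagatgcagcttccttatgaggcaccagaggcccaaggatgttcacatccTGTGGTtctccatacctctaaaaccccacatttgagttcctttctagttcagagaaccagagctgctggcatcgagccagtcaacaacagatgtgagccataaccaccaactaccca
Trav10d upstream: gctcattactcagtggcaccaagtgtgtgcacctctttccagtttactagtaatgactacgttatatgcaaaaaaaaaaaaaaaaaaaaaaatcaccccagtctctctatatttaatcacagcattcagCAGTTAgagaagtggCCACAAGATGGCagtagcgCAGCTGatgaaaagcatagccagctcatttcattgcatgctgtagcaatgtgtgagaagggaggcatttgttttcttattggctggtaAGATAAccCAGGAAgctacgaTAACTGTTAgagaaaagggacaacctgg
Trav12-1 upstream: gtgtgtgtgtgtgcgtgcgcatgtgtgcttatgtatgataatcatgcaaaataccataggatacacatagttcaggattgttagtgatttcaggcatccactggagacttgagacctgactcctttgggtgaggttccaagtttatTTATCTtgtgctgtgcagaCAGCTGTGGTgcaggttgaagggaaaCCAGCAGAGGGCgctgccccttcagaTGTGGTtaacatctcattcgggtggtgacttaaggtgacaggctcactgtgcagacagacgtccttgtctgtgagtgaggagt

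The locus was denser in peaks than the genome at every stage, and the excess was smallest at DN. The window covers 1840 kb and held 11.6 peaks per 100 kb at DN, 12 at DP, then 11.6 at SP4 and 10.9 at SP8. Genome-wide the lists held 6.10, 4.35, 4.67 and 4.24 peaks per 100 kb in the same order. The density of the locus was therefore 1.90 times that of the genome at DN, 2.75 times at DP, then 2.49 times at SP4 and 2.58 times at SP8. The number of peaks in the locus was nearly level across stages while the whole list was longest at DN.

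Along the locus 4 parts were kept apart, and their stage patterns ran in different directions. The V part (chr14:52400000-54075515, 1676 kb) ends with the last V segment before Trdd1, the delta part (chr14:54075516-54149294, 73.8 kb) ends with Trdv5, the J part (chr14:54149295-54220520, 71.2 kb) ends before Trac, and the C part (chr14:54220521-54240000, 19.5 kb) runs from Trac past its enhancer. The V part held 178 peaks at DN, 181 at DP, then 165 at SP4 and 154 at SP8. The delta part held 18, 13, 15 and 10 peaks in that order, so it was highest at DN and lowest at SP8. The J part went the other way, with 12 peaks at DN, 20 at DP, then 25 at SP4 and 28 at SP8. In the C part 5 peaks were called at DN, 6 at DP and 9 at each of SP4 and SP8. Relative to the genome-wide density of its stage, the J part stood at 2.76 times at DN and 6.46 at DP, then 7.51 at SP4 and 9.27 at SP8. The C part stood at 4.21, 7.08, 9.89 and 10.9 times, the V part at 1.74, 2.48, 2.11 and 2.17 times, and the delta part at 4.00, 4.05, 4.35 and 3.20 times. Exact Poisson intervals (95%), which cover counting error only, ran from 6.20 to 21.0 for the 12 J peaks of DN and from 18.6 to 40.5 for the 28 J peaks of SP8.

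**Figure D1:**
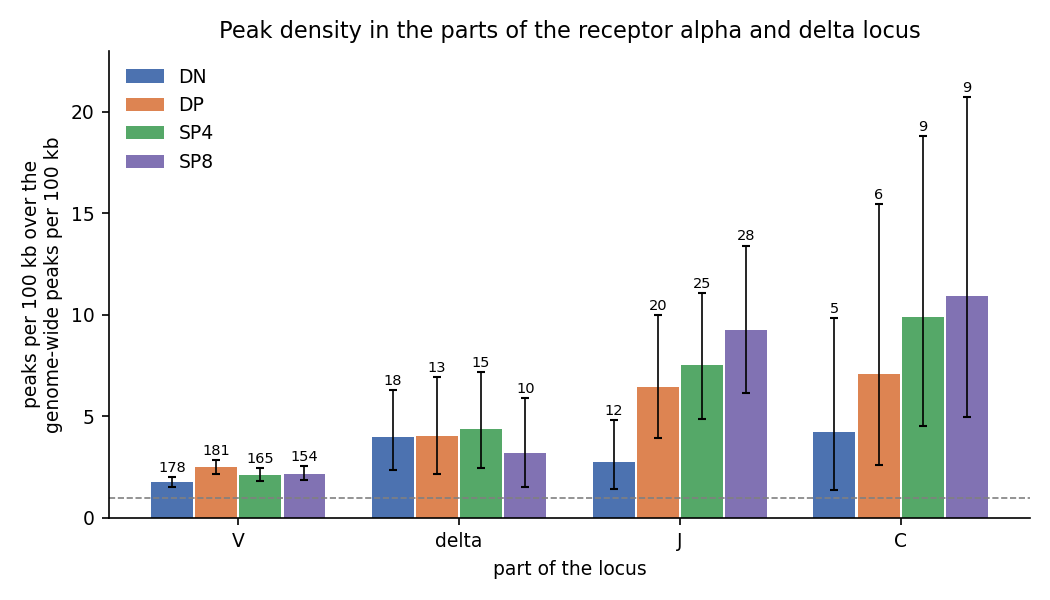
Peaks per 100 kb in each part of the locus over the genome-wide peaks per 100 kb of the same stage (bars, with the number of peaks above them, exact 95% Poisson intervals of that number as error bars and the genome-wide level as a dashed line). The J part stands at 2.76 at DN and 9.27 at SP8, while the V part stays between 1.74 and 2.48.

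Merging the 4 lists wherever peaks shared at least 1 bp gave 298 regions in the locus, and sharing across stages was more common there than in the genome. Of these, 132 had a peak at all 4 stages (44.3%, 95% Wilson interval 38.8 to 50), against 34.1% of all merged regions of the genome. Regions called at DN alone numbered 29 (9.73%), against 21.7% genome-wide. DP alone accounted for 21 regions (7.05%, genome 5.17%), SP4 alone for 14 (4.70%, genome 7.39%) and SP8 alone for 14 (4.70%, genome 4.21%). Regions with peaks at SP4 and SP8 and at no earlier stage numbered 17 (5.70%, genome 3.82%). The shared regions lay mostly in the V part, where 116 of 228 regions (50.9%) were called at all 4 stages, against 5 of 25 in the delta part, 7 of 36 in the J part and 4 of 9 in the C part. The regions called at SP4 and SP8 alone lay mostly at the other end, with 7 of 36 in the J part (19.4%, 9.75 to 35) and 3 of 9 in the C part, against 7 of 228 in the V part (3.07%) and 0 of 25 in the delta part. When each list was limited to its 104411 peaks with the lowest p-values, the share called at DN alone was 4.76% in the locus and 11.1% in the genome, and the share called at all 4 stages was 43.6% and 36.8%.

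Height is given by more than 1 measure. The fold enrichment of a peak was set by the caller over the local background, and its percentile ranks it within the list of its stage. The number of reads at the summit was solved from the fold enrichment and the p-value together, and is given as a multiple of the genome mean of the stage (summit height), as is the local background. The local background never lies below the genome mean, so 1 is its floor.

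**Figure D2:**
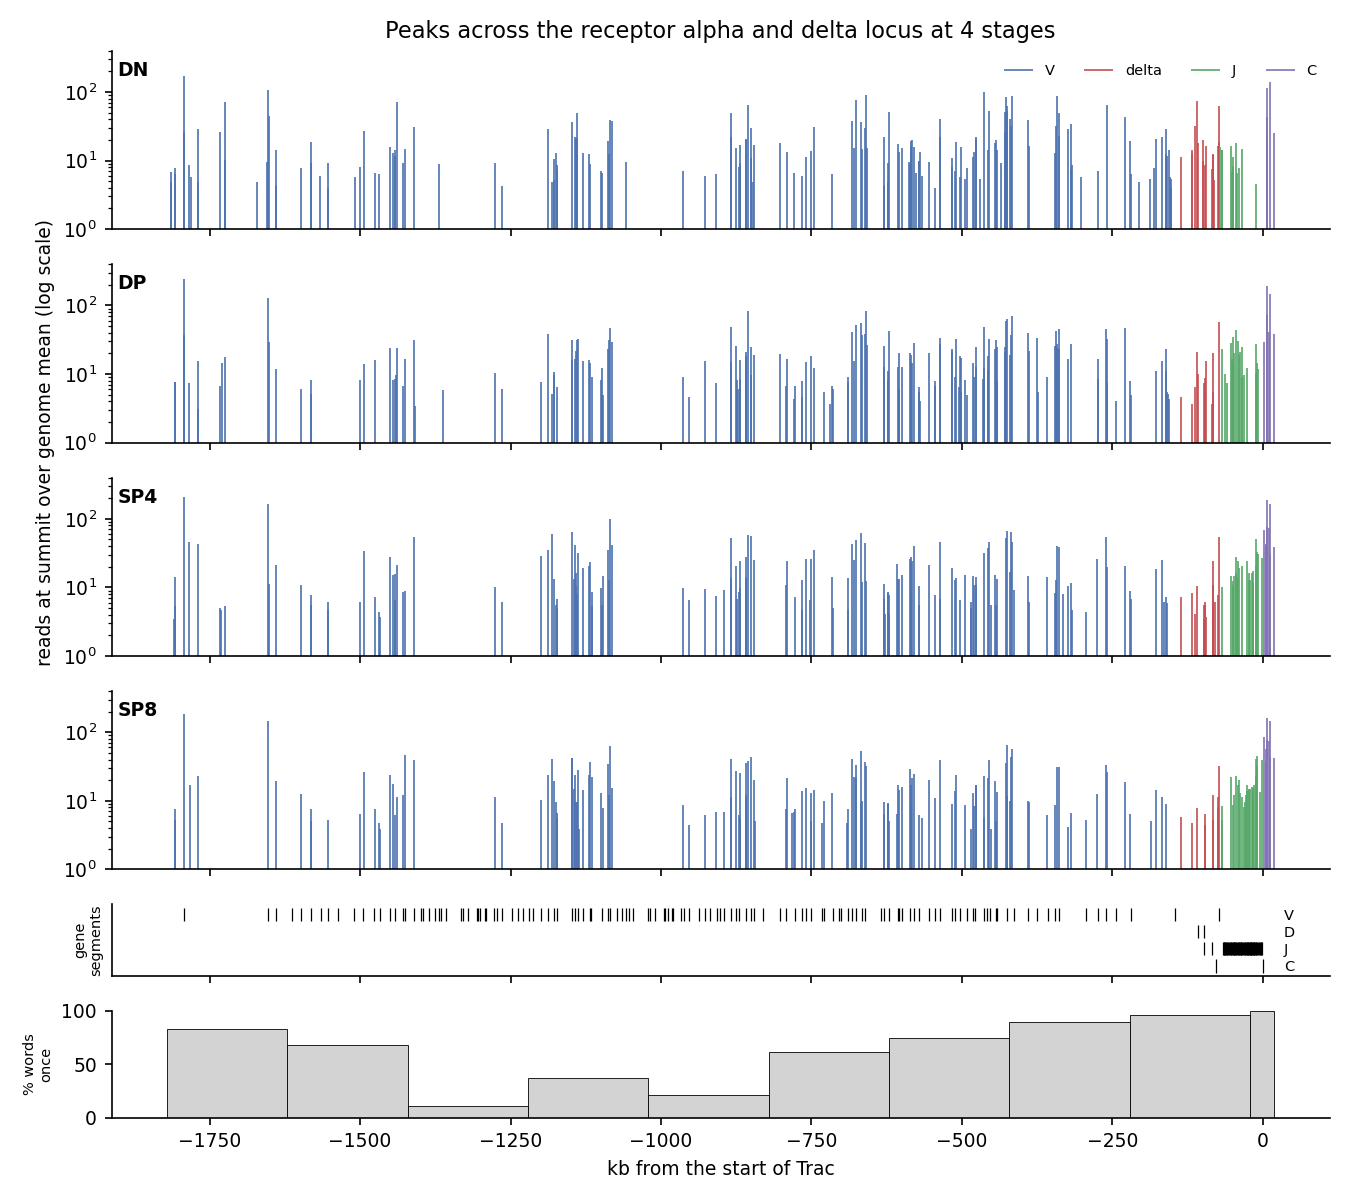
Summit height of each peak (reads at the summit as a multiple of the genome mean, log scale) at the 4 stages against the distance from the start of Trac in kb, coloured by part, with the gene segments and the percent of 75-base words found once in the genome by 200 kb bin. The bin with the fewest words found once, 10.7%, holds 4 DN peaks, and the J part at the right edge holds 12 peaks at DN and 28 at SP8.

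In the V part more than 50% of the V segments had a peak at every stage. A V segment was counted where a peak overlapped its annotated span with 500 bp upstream and 50 bp past its end. By this count 77 of 136 V segments had a DN peak (56.6%, 48.2 to 64.7), and 80 (58.8%, 50.4 to 66.7) had one at each of DP, SP4 and SP8. Genome windows of the same median length held a peak in 7.06% of cases at DN, 5.20% at DP, then 5.61% at SP4 and 5.15% at SP8. Over all stages 91 V segments had a peak, 68 of them at all 4 and 9 at only 1, and 45 had none. The V pseudogenes, 21 in number, had a peak in 11 cases at each stage.

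V segments to which short reads can rarely be placed seldom had a peak. The mouse V alpha cluster holds repeated blocks of near-identical segments, whose copies carry d or n in their names, and the authors kept reads that map to a single place. Of the 75-base words in the V part 57.8% occur once in the genome, against 90.4% in the delta part, 99.7% in the J part and 99.2% in the C part. Among the 60 V segments with under 50% of their words found once, 12 had a DN peak (20%), 14 a DP peak, 13 an SP4 peak and 15 an SP8 peak. Among the 61 segments with at least 50% but not all words found once, 56 had a peak at DN (91.8%), 57 at DP, then 57 at SP4 and 56 at SP8. Of the 15 segments whose words all occur once, 9 had a peak at DN, 9 at DP, then 10 at SP4 and 9 at SP8. Segments with neither d nor n numbered 62 and had a peak in 47 cases at DN, 50 at DP and 48 at each of SP4 and SP8, while 16, 15, 16 and 16 of the 40 d copies did. A missing peak in the repeated blocks cannot be read as closed chromatin.

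**Figure D3:**
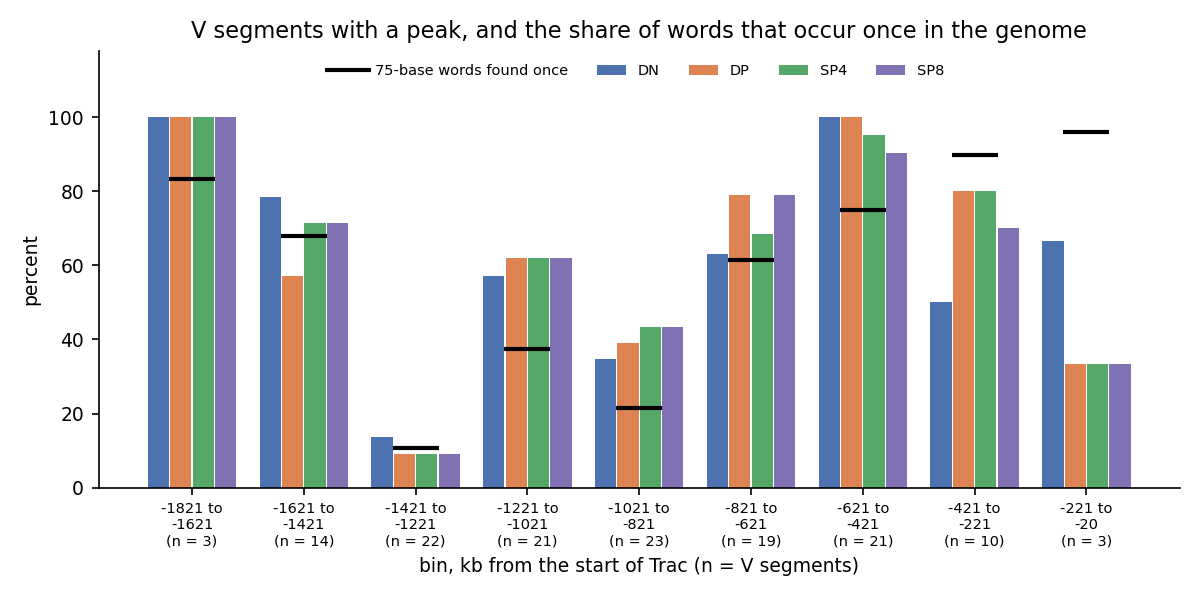
Percent of V segments with a peak at each stage (bars) and percent of 75-base words found once in the genome (black dashes) in 200 kb bins by distance from the start of Trac, with the number of segments per bin. The bin with 10.7% of words found once has 3 of 22 segments with a DN peak, the bin with 37.3% has 12 of 21, the bin with 75% has 21 of 21 and the bin with 89.8% has 5 of 10.

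By distance from Trdd1, the stages differed little. Of the 8 V segments within 250 kb upstream, 5 had a peak at DN and 6 at each later stage. Of the 25 V segments 250 to 500 kb upstream of Trdd1, 22 had a DN peak, 24 a DP peak, 23 an SP4 peak and 21 an SP8 peak. The 51 segments farthest from Trdd1 had a peak in 25, 23, 25 and 25 cases. V segments both near to and far from Trdd1 thus had peaks at DP and SP stages alike.

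The V segments with peaks at all 4 stages were led by Trav2, Trav13n-3, Trav13-4-dv7, Trav10d and Trav1 when ordered by their highest percentile of fold enrichment. Trav2 (chr14:52567198-52568051) had a summit height of 106 at DN and 130 at DP, then 167 at SP4 and 147 at SP8, with the summit 44 to 47 bp upstream of its start. Trav1 (chr14:52427928-52428876), the V segment farthest from the J segments, had the highest summits of the V part, 173 at DN and 240 at DP, then 205 at SP4 and 183 at SP8. Trav10d (chr14:52810934-52811496) stood at 31.1, 31.8, 54.1 and 39.9. These 3 peaks lay on the promoter side and were at least as high at SP4 as at DN. Trav4-4-dv10 (chr14:53683647-53684177) belongs with them, at 41.0, 33.9, 46.6 and 39.6.

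A second group had its summit near the other end of the segment, on either side of it. Trav13n-3 (chr14:53337122-53337639) had heights of 49.9, 48.2, 52.8 and 41.3, and Trav13d-3 (chr14:53032848-53033419) of 29.1, 38.8, 35.7 and 23.5. Only 18.4% and 2.10% of the words of these segments are found once. Trav13-4-dv7 (chr14:53757356-53757921), a segment used in both alpha and delta chains, had heights of 99.7 at DN and 49.2 at DP, then 32 at SP4 and 22.9 at SP8. Trav4-3 (chr14:53598828-53599410) had its end peak at 51.3, 42.7, 7.77 and 5.03. In both, the cutting site shown above lies under the peak that was lower at the later stages. Apart from this group, Trav15-3 (chr14:53767026-53767180), with its summit about 300 bp upstream of the annotated start, had heights of 53.0, 32.4, 45.4 and 38.8. Trav6d-5 (chr14:52795165-52795633), with its summit near the end, stood at 14.8, 16.8, 9.01 and 46.1, and was highest at SP8.

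This split between the ends was then counted over all V segments, a comparison chosen after the values were seen. A summit from 200 bp upstream to 50 bp past the start was found for 44 of 136 segments at DN, 54 at DP, then 55 at SP4 and 57 at SP8. A summit within 100 bp of the end was found for 39 segments at DN (28.7%, 21.7 to 36.8), 44 at DP (32.4%), 31 at SP4 (22.8%) and 29 at SP8 (21.3%, 15.3 to 28.9). SP4 and SP8 thus had more start peaks and fewer end peaks than DN in these lists, though the intervals of DN and SP8 overlapped, at the start too (25.1 to 40.6 and 34.0 to 50.3). With lists of equal length the start counts were 40, 54, 53 and 57 and the end counts 33, 44, 31 and 29, so the gap at the end between DN and the SP stages was smaller. Where both stages had a start peak, SP4 was above DN in 30 of 43 segments, with a median log2 ratio of summit heights of 0.50, while over all merged regions of the genome called at both stages SP4 was above DN in 49.9%, with the few peaks whose reads could not be solved left out. SP8 was above DN in 29 of 43 segments at the start, but with a median of only 0.15 (0.04 and 51.9% over the genome). At the start SP8 was above DP in 23 of 51 segments (median -0.04), against 58.5% over the genome (median 0.14). At the ends, SP4 was above DN in 13 of 27 segments (median log2 ratio -0.29) and above DP in 8 of 28 (median -0.66), against 57.6% over the genome for SP4 above DP (median 0.12). DP was above DN in 28 of 42 segments at the start (median 0.26) and in 19 of 32 at the end (median 0.24). Over the genome DP was above DN in 41.7% of the regions (median -0.15). Of the 27 segments with an end peak at both DN and SP4, 8 were more than 2-fold lower at SP4 and 1 was more than 2-fold higher. Further examples were Trav13-1, whose end peak stood at 77.2, 51.0, 48.5 and 33.5, and Trdv2-2, at 64.7, 32.4, 19.9 and 26, while the start peak of Trdv2-2 was called at DP (45.8), SP4 (53.7) and SP8 (33.5).

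**Figure D4:**
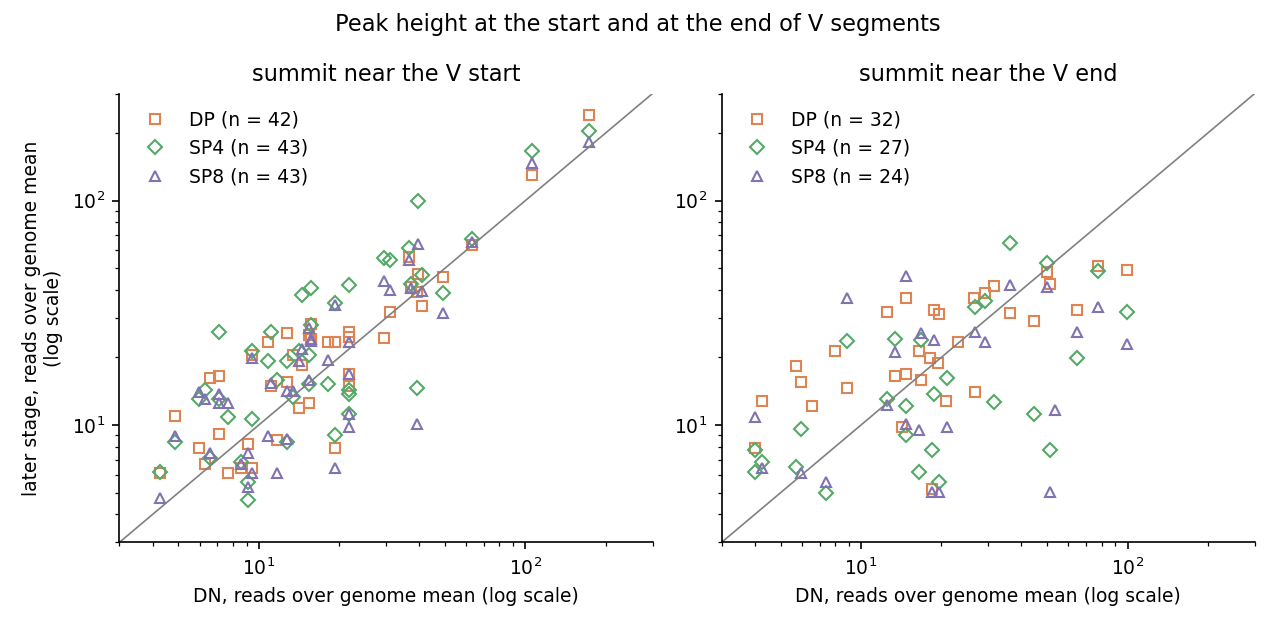
Summit height of V segments at DP, SP4 and SP8 against DN, as multiples of the genome mean on log axes, for summits near the V start and summits within 100 bp of the V end, with a line of equal height. At the start 30 of 43 SP4 points lie above the line, and at the end 13 of 27.

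Of the 9 V segments with a peak at a single stage, 7 had a height under 10. Trav7-1, Trav4d-2, Trav13d-1, Trav13n-1 and Trdv5 had a peak at DN alone, with heights of 5.98, 5.70, 8.83, 9.40 and 18.8. Trav9-1 had one at SP8 alone (4.75), Trav17 at SP4 alone (9.32) and Trav23 at DP alone (3.97). Trav19 (chr14:53845234-53845827) was the highest, with a DP peak of height 33.6 at its end, at percentile 98.1 of the DP list by fold enrichment, and no peak at the other stages. All of its words occur once in the genome.

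The V delta segments lie near the end of the V part, apart from the inverted Trdv5 past Trdc. Trdv1 had heights of 49.3 at DN and 45.8 at DP, then 38.8 at SP4 and 31.5 at SP8. By fold enrichment Trdv1 was lowest at DN, at percentile 72.5 against 82.8 at DP, 82.2 at SP4 and 82.4 at SP8. Trdv3 had heights of 19.4, 7.94, 9.01 and 6.42, and Trdv2-1 of 7.12, 16.5, 26.1 and 12.6. Trdv4, the nearest V segment upstream of Trdd1, had no peak at any stage. Trdv2-2 had its highest summit at its end at DN (64.7) and at its start later, at 45.8, 53.7 and 33.5. Trdv5 was open at DN alone. By summit height Trdv1, Trdv2-2, Trdv3 and Trdv5 were thus highest at DN, and Trdv2-1 at SP4. By fold enrichment Trdv1 and Trdv2-2 were not highest at DN, with Trdv2-2 at percentile 93.8, 95.7, 98.7 and 92.5.

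Some of the strongest stage differences of the V part lay away from V segments. A region at the olfactory receptor gene Olfr1507 (chr14:52495380-52495969) had a height of 70.7 at DN, 17.7 at DP and 5.28 at SP4, with no SP8 peak, and ranked at percentile 99.4 of the DN list. An intergenic region at chr14:52782853-52783223 stood at 71.5, 23.8, 21.1 and 11.4. The reverse order was seen in a region inside Gm30214 (chr14:53039405-53039883), chosen after its values were seen, with 4.84 at DN and 5.19 at DP, then 59.3 at SP4 and 41.0 at SP8. Another so chosen, chr14:52436627-52437252, stood at 8.55, 7.33, 46.0 and 16.8.

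In the delta part the D segments with the bases before them were highest at DN by summit height. Of the 25 regions there, 8 were called at DN and at neither SP stage (32%, 17.2 to 51.6, genome 27.3%), and 7 at an SP stage and not at DN (28.0%, 14.3 to 47.6, genome 19.1%), so both intervals hold the genome share. The region upstream of Trdd1 (chr14:54110933-54111468) had the highest DN summit of the delta part, 74.4 (95% interval 65.6 to 84.0), with 21.1 at DP, then 10.6 at SP4 and 7.82 at SP8 (5.19 to 11.3). Its neighbour at chr14:54108686-54109133 stood at 31.6, 6.41 and 4.04, with no SP8 peak. A peak over Trdd1 was called at DN (18.2) and DP (10.1) and not at SP4 or SP8, though by fold enrichment its percentile was 36.9 at DN and 66.7 at DP. Trdd2 had a peak at DN alone (19.9). Trdj2, a delta J segment, had one at DN (7.41) and DP (3.66), and Trdj1 had none at any stage. The D segments and the bases before them thus had their highest summits at DN and lower ones, or none, at DP.

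The median local background under the peaks of the delta part was 2.53 times the genome mean at DN and 1 at each later stage. Alpha rearrangement removes this stretch, and the part of lost copies in the difference was not tested. Around Trdc the background stayed above the genome mean at every stage, and the region in the 3′ untranslated part of Trdc (chr14:54147585-54147931) had heights of 63.0, 58.3, 54.7 and 32.1 over a local background of 4.04, 2.77, 2.06 and 1.80. A DN peak alone covered the end of Trdc and Trdv5 (chr14:54148504-54148726, 18.8).

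Between Trdj2 and Trdc, where the delta enhancer lies, 5 regions were called, and which of them holds the enhancer cannot be told from these data. The first past Trdj2 (chr14:54137090-54137493) had a height of 12.3 at DN (8.87 to 16.5) and 20.5 at DP (15.9 to 26), then 23.9 at SP4 (18.9 to 29.9) and 12.3 at SP8 (8.93 to 16.5). By fold enrichment it ranked at percentile 69.3, 89.0, 90.8 and 69.1, and of the motifs searched its printed window holds ETS at 2 places. The next (chr14:54138081-54138584) stood at 12 at DN, 5.50 at DP and 10.9 at SP4, with no SP8 peak, and the window on its summit holds RUNX and MYB once and GATA at 2 places. The other 3 were called at DN and SP8 (chr14:54138748-54138935, 9.40 and 5.30), at DN alone (chr14:54139743-54139842, 5.13) and at SP4 alone (chr14:54140743-54140847, 6.21).

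In the J part the peaks lay nearer to Trac at the later stages, and there were more of them. Their median percentile by fold enrichment was 31.5 at DN and 30.4 at DP, then 18.0 at SP4 and 12.1 at SP8. By p-value the median percentile was 43.5, 50.1, 41.8 and 31.8 in that order. A J alpha segment was counted where a peak overlapped it or the 50 bp before it, where its recombination signal lies. Of 60 J alpha segments, 3 had a peak at DN (5%, 1.71 to 13.7), 12 at DP (20%, 11.8 to 31.8), and 10 at each of SP4 and SP8 (16.7%, 9.31 to 28.0). Genome windows of the same median length, 111 bp, held a peak in 2.47% of cases at DN, 1.83% at DP, then 1.97% at SP4 and 1.86% at SP8. The DN count was 5 when the window took 100 bp on each side.

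Of the 20 J alpha segments farthest from Trac, Traj61 to Traj42, 2 had a peak at DN, 6 at DP and 3 at each of SP4 and SP8. Among the 20 in the middle, Traj41 to Traj22, the counts were 1, 4, 3 and 3. Among the 20 nearest to Trac, Traj21 to Traj1, they were 0, 2, 4 and 4. By count the DP peaks thus leaned to the far end and the SP peaks did not, though the intervals overlapped. For DP they ran from 14.5 to 51.9% at the far end and from 2.79 to 30.1% near Trac. For each SP stage they ran from 5.24 to 36.0% and from 8.07 to 41.6%. Traj58, Traj54, Traj47 and Traj32 had a peak over the segment at DP alone, with heights of 10.1, 7.33, 34.5 and 9.16. Traj15 and Traj1 had one at SP4 (17.4 and 26.7) and SP8 (15.6 and 39.6) alone. Traj40 was called at SP4 alone (14.3), and Traj36 at DP (21.1) and SP8 (13.1). Of the J alpha segments with a peak, Traj54, Traj36, Traj8 and Traj1 are pseudogenes.

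Traj49, Traj42 and Traj37 had a peak at all 4 stages. Traj42 had a height of 18.2 at DN and 44.3 at DP, then 27.6 at SP4 and 23.2 at SP8, and Traj49 of 16.2, 28.4, 14.9 and 22.3. Both were highest at DP by summit height, while by fold enrichment both were highest at DN, at percentile 73.6 against 70.4 at DP for Traj42 and 69.8 against 56.3 for Traj49. Traj37 had heights of 7.69, 19.2, 19 and 20.1, lowest at DN. By fold enrichment Traj37 was highest at DN, at percentile 47.8 against 44.9 at DP, 35.4 at SP4 and 45.4 at SP8. Traj45 and Traj26 had peaks from DP on, with heights of 20.2, 14.6 and 12.3 for Traj45 and 12.2, 24.5 and 13.7 for Traj26. Nearer to Trac, Traj8 was called over the segment at DP (27.2), SP4 (50.6) and SP8 (41.0), and Traj7 at DP (14.4), SP4 (32.6) and SP8 (45.5). By summit height these segments near Trac were higher at both SP stages than at DP, the reverse of Traj42. By fold enrichment Traj8 went the other way, at percentile 58.5 at DP, 51.5 at SP4 and 38.2 at SP8, over a local background of 3.90, 8 and 8.16, while Traj7 stood at percentile 18.9, 22.6 and 43.2. A region between Traj segments, chr14:54186383-54186589, stood at 14.8, 24.4, 20.2 and 11.4.

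The level around the peaks moved in the same direction along the J part. When the part was cut into 5 equal stretches, the one farthest from Trac had a median local background of 3.42 at DN and 2.64 at DP, then 1.23 at SP4 and 1.21 at SP8. In the stretch next to Trac the values were 1, 3.88, 8.11 and 8.18. Peaks per stretch, from far to near, numbered 3, 5, 3, 0 and 1 at DN, 3, 6, 6, 1 and 4 at DP, 1, 6, 5, 8 and 5 at SP4, and 2, 4, 6, 10 and 6 at SP8. The DN peaks of the far stretch include a peak at the start of the inverted Trdv5 (chr14:54149158-54149437, height 15.7), a V delta segment. Background and peaks thus lay farthest from Trac at DN and nearest at the SP stages. J segments upstream of a join are deleted by it, and how much of this shift is lost DNA was not tested.

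**Figure D5:**
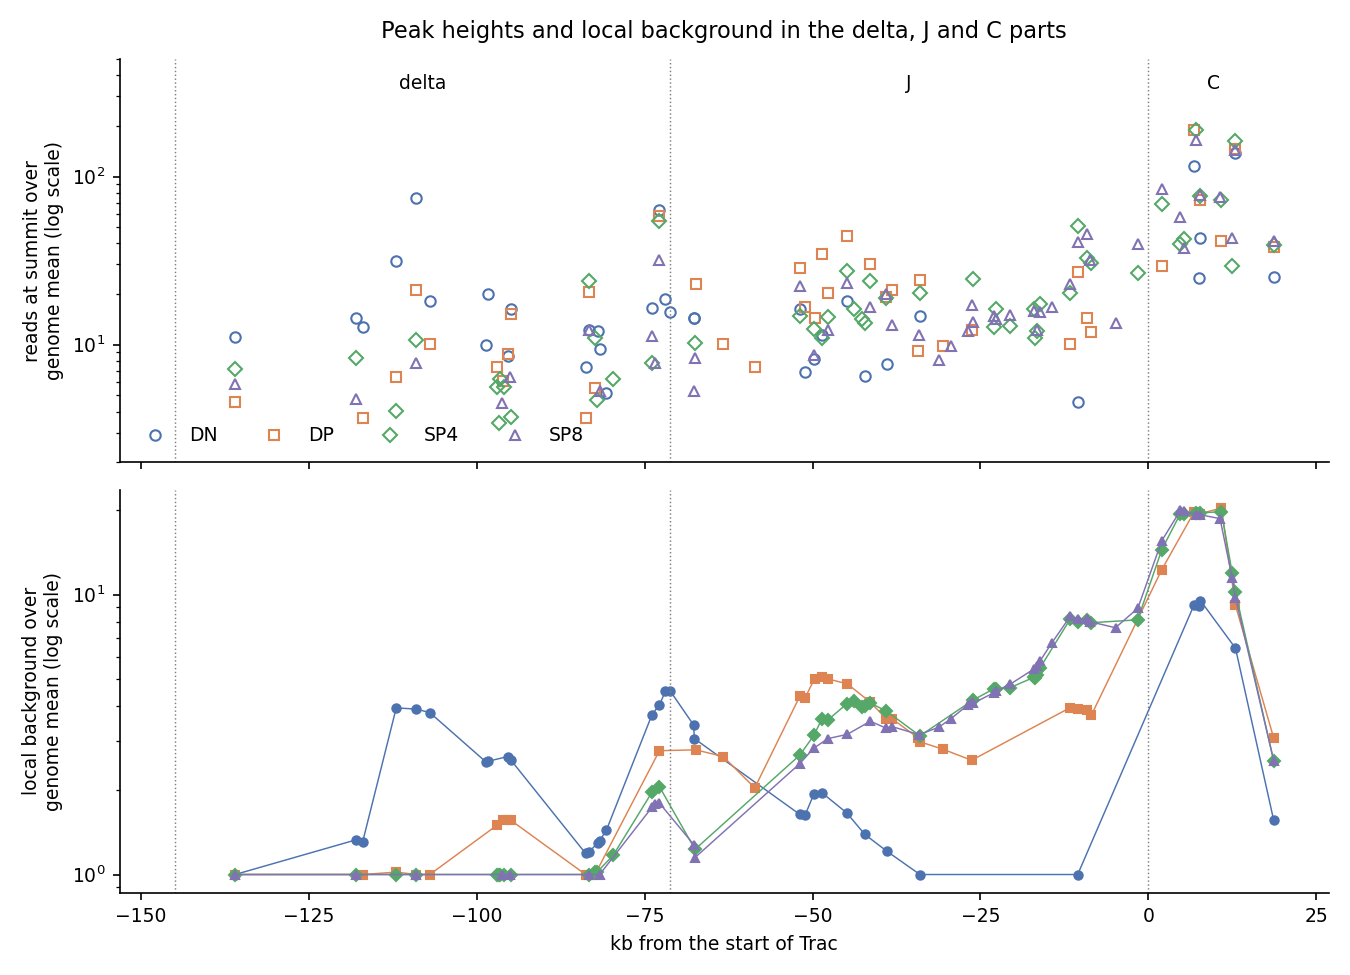
Summit height (top) and local background under each peak (bottom), both as multiples of the genome mean on log scales, against the distance from the start of Trac in kb, for the peaks of the delta, J and C parts at the 4 stages, with dotted lines at the starts of the parts. The DN background is highest of the 4 stages around Trdd1 and Trdc and lowest near Trac, where the median background of the last J stretch is 8.11 at SP4 and 8.18 at SP8.

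The TEA stretch (chr14:54152565-54153286) was highest at DP, with heights of 14.5 at DN (10.8 to 19.1) and 22.9 at DP (18.0 to 28.7), then 10.3 at SP4 (7.06 to 14.4) and 8.38 at SP8 (5.65 to 12). Its percentile by fold enrichment was 34.2, 64.7, 56.7 and 49.1, so SP8 stood above DN by that measure and below it by summit height and by the percentile of the p-value (49.6 at DN and 40.1 at SP8). The local background there was 3.06 at DN and 2.79 at DP, then 1.23 at SP4 and 1.15 at SP8.

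In the C part the enhancer past Trac was open at all 4 stages. Its region (chr14:54227097-54228094, 6.81 kb past the start of Trac) had a summit height of 115 at DN (104 to 126) and 190 at DP (176 to 206), then 189 at SP4 (174 to 205) and 164 at SP8 (151 to 177). It was the highest summit of the delta, J and C parts at DP, SP4 and SP8. A shoulder at chr14:54228215-54228445 stood at 43.0, 72.1, 76.4 and 78.2. The local background at the enhancer was 9.17 at DN and 19.7, 19.6 and 19.3 at DP, SP4 and SP8. Its percentile by fold enrichment, which divides by that background, was 82.1 at DN and 73.4, 70.1 and 63.1 later, so that DN was highest by this measure and lowest by summit height, and by p-value it was 96.9, 97.5, 97.2 and 95.2. The enhancer and the DNA around it thus both carried more reads from DP on. The stretch printed above holds CRE, RUNX, TCF/LEF, GATA, E-box, ETS and MYB once each, with CRE at chr14:54227480-54227487.

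Other regions of the C part were called from DP or from the SP stages on. The intron of Trac (chr14:54222240-54222720) had no peak at DN and heights of 29.3 at DP, then 68.3 at SP4 and 84.3 at SP8. The region at chr14:54231145-54231490 had no DN peak either and stood at 41.2, 73.0 and 75.4. The regions chr14:54225229-54225446, chr14:54225755-54225968 and chr14:54232917-54233051 were called at SP4 (39.8, 42.6 and 29.5) and SP8 (57.5, 37.7 and 43.0) alone. These heights stood on a raised local background, with a median over all C peaks of 9.08, 15.9, 19.4 and 18.7 from DN to SP8. By fold enrichment the median percentile of the C peaks fell from 82.1 at DN and 47.1 at DP to 21.9 at SP4 and 25.2 at SP8. By p-value it was 81.3, 79.6, 77.3 and 76.3. Between the enhancer and Dad1, the region further past Trac (chr14:54233157-54233836) differed little between stages, at 139 at DN and 146 at DP, then 162 at SP4 and 144 at SP8. An intron of Dad1, a gene of protein glycosylation that borders the locus, stood at 25.4, 38.2, 39.1 and 41.6 (chr14:54238843-54239378). The later peaks thus lay on both sides of an enhancer that was open from DN on.

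An exact heptamer was about as common in V segments with a peak as in those without. It was read beside 105 of 136 V segments (77.2%), in 96 of 115 genes and 9 of 21 pseudogenes. It was present in 69 of the 91 V segments with a peak (75.8%, 66.1 to 83.5) and in 36 of the 45 without (80%, 66.2 to 89.1). Of the J alpha segments 16 of 60 had it (26.7%), namely 3 of the 15 with a peak and 13 of the 45 without. The exact nonamer was rarer, in 5 of the 91 V segments with a peak and 0 of the 45 without, and all 5 had the exact heptamer too.

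Among the motifs, CTCF differed most between V regions with a summit near a V start and the rest of the V part. CTCF, a factor that anchors chromatin loops, matched in 16 of the 57 V regions with a summit near a V start (28.1%, 18.1 to 40.8). It matched in 6 of the 171 other V regions (3.51%). No region of the delta part (0 of 25, interval 0 to 13.3%) or J part (0 of 36, 0 to 9.64%) matched. The share over the genome was 5.16%, as given above, and the intervals of the delta and J parts both hold it. Some of the matches lay at related segments, such as Trav7d-3, Trav7d-4 and Trav7-4, and the interval counts each region as separate. RUNX matched in 31.6% of the start regions and 45.6% of the others, ETS in 54.4% and 41.5%, and MYB in 22.8% and 33.9%. RUNX matched in 13 of 25 delta regions (52.0%, 33.5 to 70.0) and 7 of 36 J regions (19.4%, 9.75 to 35), against 31.5%. CRE matched in 1 of the 298 windows on summits, a J region (chr14:54215647-54215746). The enhancer past Trac holds its CRE outside the window on its summit. A match shows letters and no bound factor. A site that departs from the letters searched is missed, so no match does not show that a site is absent.

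Other receptor loci are given for comparison. At Trb, the receptor beta locus, 21 of 35 V segments had a DN peak, 19 a DP peak, 17 an SP4 peak and 18 an SP8 peak, and the whole locus held 77, 52, 59 and 57 peaks, or 1.89, 1.79, 1.89 and 2.02 times the genome-wide density of each stage. At Trg, the receptor gamma locus, 6 of 7 V segments had a peak at each stage, while its peaks numbered 38, 18, 13 and 15, or 3.57, 2.37, 1.59 and 2.02 times that density. At Igh, the antibody heavy chain locus of B cells, 99, 89, 86 and 94 of 183 V segments had a peak, at densities of 1.33, 1.49, 1.37 and 1.60 times, so an open V segment is not particular to the alpha and delta locus. Relative to the genome Trb was thus nearly level over the stages and Trg was densest at DN, and no difference between loci was tested.

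Promoters of marker genes were read to see what the sorted groups held. Of 8 DN markers and 8 SP markers all had a promoter peak at every stage, and of 8 DP markers 8, 8, 7 and 7 did, Dntt being the gene without a peak at SP4 and SP8, so these lists do not separate the stages. Of 20 genes of receptor assembly and its regulators, among them Rag1, Rag2 and Cd3e, a promoter peak was called for 20, 20, 19 and 19. Of 8 myeloid markers 8 had a peak at DN (Csf1r, Lyz2 and Spi1 among them) and 4, 5 and 5 later. Gamma delta markers numbered 5 of 8 at each stage, and erythroid markers 3, 3, 2 and 2 of 5. Over all protein-coding genes 70.6%, 65.6%, 63.8% and 63.3% had a promoter peak.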

How the data were processed

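ATAC-seq reads of 4 pooled mice per stage were made into 1 peak list per stage by the authors, who trimmed the reads, aligned them to mm10, kept uniquely mapped pairs, limited each library to the median depth and ran MACS2 on the pool at 5% FDR. The authors deposited for each peak a score, which follows the q-value, a fold enrichment, which is a ratio over the local background, and a −log10 p-value. Read depth per library was not used here, and counting intervals cover counting error only. The lists were taken as deposited, on 19 autosomes. From fold enrichment and p-value together the whole number of reads at each summit of the locus and the local background were solved, with a largest gap of 0.000434 in −log10 p, and the genome mean was 3.51 reads per position at DN and 3.28 at DP, then 3.22 at SP4 and 3.58 at SP8. Segments and genes came from GENCODE and sequences from RefSeq (mm10). Shares have 95% Wilson intervals. Python 3.11.15, numpy 2.4.6, scipy 1.17.1 and pandas 2.3.3 were used, and the functions were tested on simulated data.

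The members and lists were chosen with earlier results of these data known. Named were the known control elements, the regions over D, delta J, C and V delta segments, J alpha segments with a peak, the 5 highest regions of the delta, J and C parts and of the V part by percentile, and V segments with a peak at all 4 stages or at 1 stage, up to 10 of each by percentile. Alternatives were a stricter q-value (0.001), lists of equal length, other overlaps and windows, and other measures of height. Results for 1 marker list are not reported here.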

Additional observations from a re-analysis of the deposited data

How the results depend on the processing

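Of 190 values recomputed under an alternative, 171 stayed close to the value given, 13 moved and 6 had the opposite sign. A count was close within a ratio of 1.5 and a share within the Wilson interval of the value given, so a share of few regions could shift further and still be close. A difference in height counted as moved unless its sign was opposite. With lists of equal length, 104411 peaks each, DN kept 69.5% of its peaks, and regions called at DN alone made up 4.76% of the locus and 3.41% of the V part, while regions called at SP4 or SP8 and not at DN made up 29.7% and 22.4%, where the full lists gave 23.2% and 15.8%. Over the genome the share was 28.6% with lists of equal length and 19.1% with the full lists. With 100 bp on each side, 5 J alpha segments had a DN peak. As the difference in percentile between SP8 and DN, fold enrichment gave -19.0 for the enhancer past Trac, -12.7 for the region further past Trac, -0.200 for the region first past Trdj2, -41.3 upstream of Trdd1, 14.9 for the TEA stretch, -7.60 for Traj49 and -18.8 for Traj42. The percentile by p-value, which has the order of the q-value, gave -1.70, -2.30, -3.80, -56.1, -9.50, -1.10 and -7.30 in that order, and so the other sign for the TEA stretch. The log2 ratio of summit heights, chosen after seeing the data, gave 0.51, 0.05, 0.00, -3.25, -0.79, 0.46 and 0.35, with the other sign at the enhancer past Trac, further past Trac, TEA, Traj49 and Traj42. The causes were not tested, beyond the local background, which fold enrichment divides by. No paired analysis was possible because peaks were called on pooled mice, although the labels give each mouse the same number at every stage. A site without a peak may hold signal under the threshold.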
